A study of Mus musculus with 12 samples.

Results

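The Bcl2 family genes described here are 10 mouse genes that control the mitochondrial route of apoptosis, and they were followed through the cJun and H3K4me3 peaks that lay within 50 kb of their gene bodies. They comprise 3 pro-survival genes (Bcl2, Bcl2l1 and Mcl1), 2 effectors (Bax and Bak1) and 5 BH3-only genes (Bcl2l11, Bbc3, Pmaip1, Bad and Bid), out of 21768 protein-coding gene entries of the GENCODE vM21 annotation (GRCm38) outside the Y chromosome. They were chosen by name, and every peak in the window was taken whatever its strength, which gave 112 peaks in the 4 deposited lists.

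The lists come from CUT&RUN, in which a nuclease tethered by an antibody cuts and releases the DNA under it, in Min6, a β cell-like line from a mouse insulinoma. Cells received the cJun N-terminal kinase inhibitor SP600125 (JNKi, 20 µM) or its solvent DMSO for 48 hours. Each treatment was profiled with antibodies to the transcription factor cJun and to H3K4me3 (positive control) and with IgG (negative control), so 12 samples fell into 6 groups of 2 biological replicates. The cJun and H3K4me3 groups each gave 1 list combining both replicates. The source label of every sample is pancreas, but the material was this single tumour-derived line. H3K4me3 lay within 1 kb of a start site of 9 of 10 β cell marker genes in both treatments, all except Ins1, and at none of 2 delta cell, 3 ductal or 3 leukocyte markers. It also marked 3 of 4 alpha cell markers in DMSO and 2 in JNKi, and 1 of 5 acinar markers (Bhlha15) in both.

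Bcl2 family proteins decide whether the outer mitochondrial membrane stays intact. The pro-survival proteins hold the effectors Bax and Bak1 in check, the BH3-only proteins sense damage or stress and relieve that restraint, and once the effectors form pores, cytochrome c leaves the mitochondrion and caspases are activated. JNK is a stress-activated kinase that phosphorylates cJun, a subunit of the AP-1 dimer, and JNK signalling is a known driver of β cell death. H3K4me3 marks the start sites of active or poised genes.

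Every peak carries a −log10 p for each replicate and a global irreproducible discovery rate (IDR). The IDR estimates the share of irreproducible peaks among those at least as reproducible as the peak itself. Peaks were ranked within their own list by the lower replicate −log10 p, and the rank is given as a percentile, where 100 is the highest peak. Every sample had a nominal depth of 30000000 paired-end reads, but the depth achieved is not known, and the JNKi cJun list was shorter (1632 peaks against 4960 in DMSO, with 19032 and 19372 for H3K4me3), so −log10 p values were never compared between lists. Peak counts and overlaps rest on 1 list per treatment, which holds only peaks called in both replicates, so they have no replicate spread and were not tested. Replicate percentiles of a peak found in both treatments give 2 values against 2, for which a two-sided exact permutation test cannot go below p = 0.333, so they are given as values without a test.

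Selected cJun peaks are shown first, for an AP-1 site or a high rank, as reference sequence of GRCm38 (plus strand, 151 bases centred on the summit). Capitals mark the AP-1 site, searched as TGACTCA or TGAGTCA, which are each other's reverse complement, so that both strands are covered. The first 3 sequences are the places near members with an AP-1 site within 100 bp of a summit, of which the one near Bak1 had a peak in both lists and is shown at its JNKi summit. The other 3 are the highest DMSO peak near any member, the highest JNKi peak near any member, and the only cJun peak at a Bcl2l11 start site, none with a site in the bases shown.
Bak1, JNKi summit 9.38 kb upstream of its start (chr17:27038318-27038468): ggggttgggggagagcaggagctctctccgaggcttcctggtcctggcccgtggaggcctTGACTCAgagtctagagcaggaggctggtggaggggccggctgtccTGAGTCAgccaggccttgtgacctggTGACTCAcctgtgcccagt
Mcl1, DMSO summit 5.64 kb past its start (chr3:95664421-95664571): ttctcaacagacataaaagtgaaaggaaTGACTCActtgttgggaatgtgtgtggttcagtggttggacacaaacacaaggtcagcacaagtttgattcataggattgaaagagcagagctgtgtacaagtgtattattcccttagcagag
Bbc3, DMSO summit 16.8 kb past its start, in a Sae1 intron (chr7:16326320-16326470): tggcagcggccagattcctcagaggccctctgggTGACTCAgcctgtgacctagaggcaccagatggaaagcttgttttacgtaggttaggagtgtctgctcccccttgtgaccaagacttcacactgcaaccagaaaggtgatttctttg
Bbc3, DMSO summit 12.4 kb upstream of its start (chr7:16297122-16297272): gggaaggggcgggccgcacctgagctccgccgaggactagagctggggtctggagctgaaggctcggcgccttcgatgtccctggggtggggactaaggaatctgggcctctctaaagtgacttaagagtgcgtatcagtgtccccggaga
Bbc3, JNKi summit 3.67 kb past its start, in an intron (chr7:16313211-16313361): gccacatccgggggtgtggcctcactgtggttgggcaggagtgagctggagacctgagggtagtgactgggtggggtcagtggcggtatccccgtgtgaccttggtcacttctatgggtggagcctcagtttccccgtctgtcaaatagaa
Bcl2l11, JNKi summit 199 bp upstream of its start (chr2:128125764-128125914): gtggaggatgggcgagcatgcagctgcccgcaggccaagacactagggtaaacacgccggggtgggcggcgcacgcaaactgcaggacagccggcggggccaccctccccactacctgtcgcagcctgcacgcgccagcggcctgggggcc
An AP-1 site lay within 100 bp of the summit in 3 of 15 DMSO and 1 of 9 JNKi cJun peaks near members, against 10% of all DMSO and 12.1% of all JNKi cJun peaks. Anywhere in the peak it occurred in 6 of 15 and 2 of 9, against 32.6% and 35% of the lists. Each of these counts rests on at most 6 peaks, and no member peak with a site within 100 bp of the summit had an IDR of at most 0.05. A match is a description of letters in the reference and does not show which factor bound.

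In DMSO, 6 of the 10 genes had a cJun peak within 50 kb, with 15 peaks in all, and in JNKi 4 genes had 9. At an IDR of at most 0.05 the counts were 3 genes in each list, with 5 DMSO and 6 JNKi peaks, where 4.22% of all genes had a DMSO and 2.74% a JNKi peak and the whole lists held 445 and 255 peaks. At 0.01 they were 1 gene with 2 peaks in DMSO and 2 genes with 4 peaks in JNKi, where 2.29% and 1.28% of all genes had one and the lists held 207 (4.17%) and 115 (7.05%). The higher DMSO count near members was thus not kept at these limits, while in the whole lists it was, but the member counts are small and most of these peaks were at Bbc3. Of all protein-coding genes, 28.4% had a DMSO cJun peak in this window and 12.2% a JNKi peak. Mcl1, Bak1 and Bbc3 had peaks in both treatments, which 10.2% of genes did. Bcl2l1, Bax and Bad had peaks in DMSO and none in JNKi (18.2% of genes), and Bcl2l11 had a peak in JNKi and none in DMSO (2.02% of genes). Bcl2, Bid and Pmaip1 had none in either list. By role, the 3 pro-survival genes had 4 peaks in DMSO and 2 in JNKi, the 2 effectors 2 and 1, and the 5 BH3-only genes 9 and 6. Bbc3 alone held 8 of the 15 DMSO and 5 of the 9 JNKi peaks. Without Bbc3, 7 peaks remained in DMSO and 4 in JNKi.

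**Figure D1:**
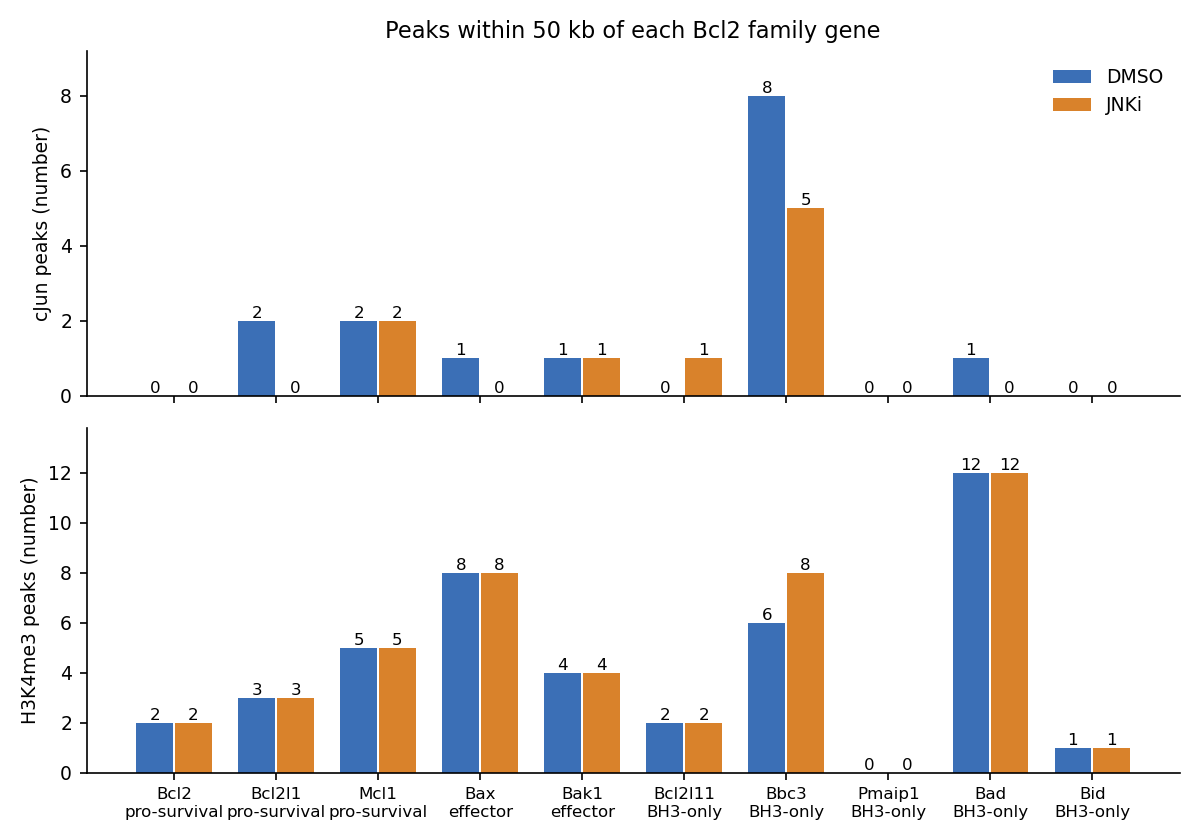
Number of cJun (upper) and H3K4me3 (lower) peaks within 50 kb of each of the 10 genes in the DMSO (blue) and JNKi (orange) lists, with the number above each bar. Bbc3 stands out for cJun with 8 and 5 peaks, while H3K4me3 counts are equal in both treatments for every gene except Bbc3.

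The longer DMSO list gives more genes a peak. When it was limited to its 1632 highest peaks, the length of the JNKi list, 9 peaks lay near 5 members (Bcl2l1, Mcl1, Bax, Bak1 and Bbc3), and 12.8% of all genes had one. Of the 15 DMSO peaks, 5 were overlapped by at least 1 bp by a JNKi cJun peak (23.6% of the whole list), and of the 9 JNKi peaks 6 were overlapped by a DMSO peak (72% of the list). An IDR of at most 0.05 was met by 5 of 15 DMSO peaks (8.97% of the list) and 6 of 9 JNKi peaks (15.6% of the list). Of these, 3 and 4 were at Bbc3. The median percentile of the member peaks was 70.2 in DMSO and 87.1 in JNKi, but 74.7 and 77.6 by the first replicate column alone and 65.8 and 91.4 by the second. Most of these peaks were closer to another gene, since the nearest coding start site was a member's own in 5 of 15 DMSO and 3 of 9 JNKi peaks.

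**Figure D2:**
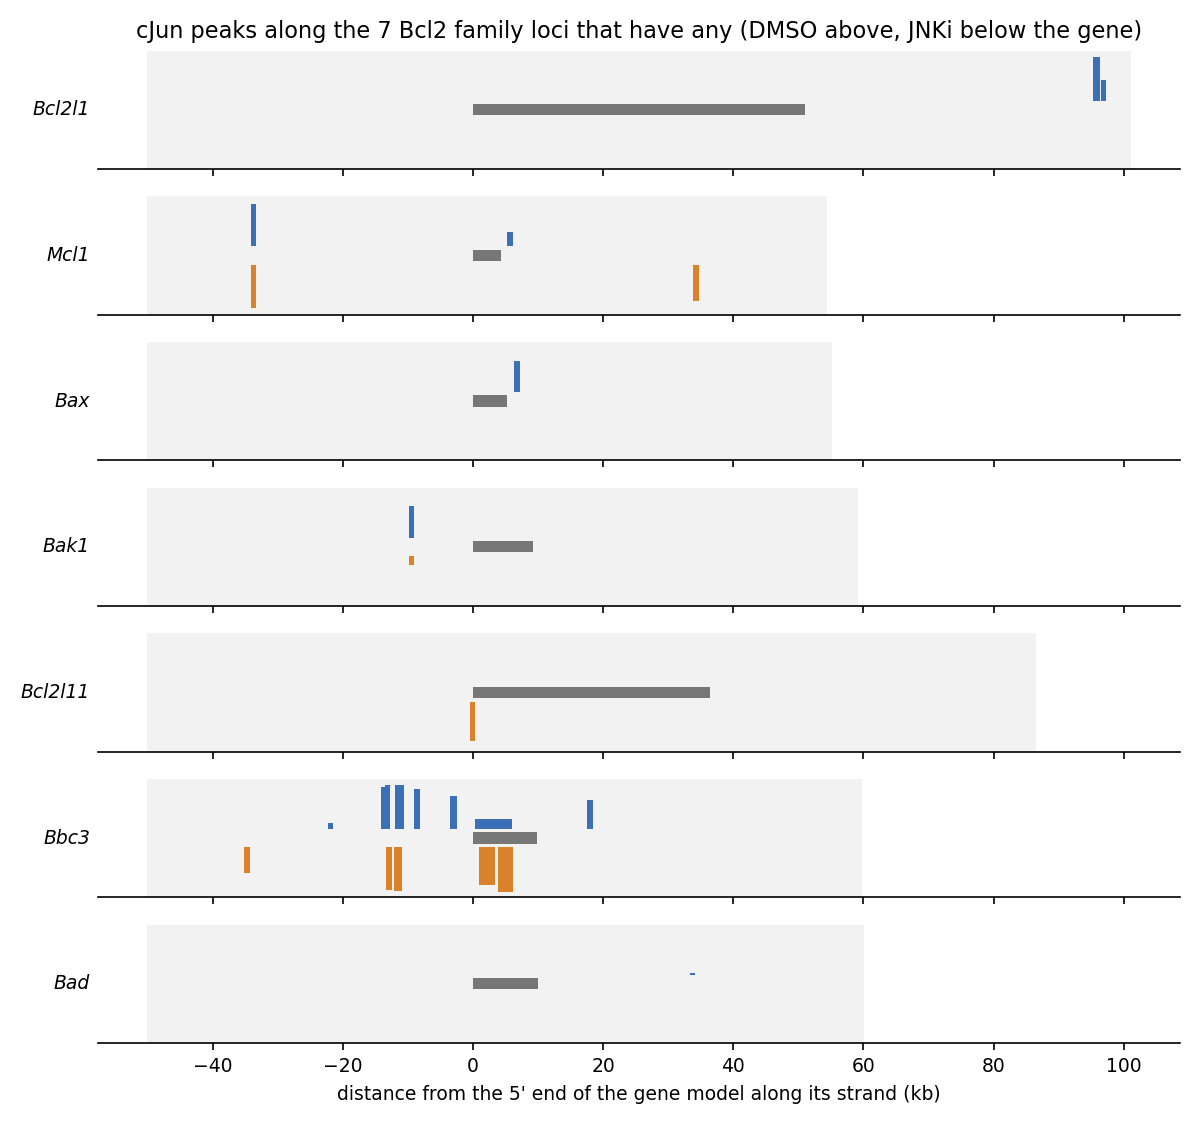
cJun peaks along the 7 loci that have any, by distance from the 5′ end of the gene model along its strand in kb (grey bar, the gene; shaded, the gene and 50 kb on each side). Bars above (DMSO, blue) and below (JNKi, orange) are peaks, drawn at least 0.8 kb wide, and their height is the percentile within the list; Bbc3 has a cluster upstream and peaks over the gene in both lists, and Bcl2l11 has its single JNKi peak at the 5′ end.

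Among the pro-survival genes, Bcl2, the founding member of the family, had no cJun peak in either list within 50 kb of its 176097 bp gene body (chromosome 1, 106538178 to 106714274, minus strand, ENSMUSG00000057329.7).

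Bcl2l1, which encodes Bcl-xL (chromosome 2, 152780668 to 152831728, minus strand, ENSMUSG00000007659.18), had 2 DMSO peaks, both beyond its 3′ end and both at Id1, a gene for a transcriptional inhibitor. The stronger spanned 152735303 to 152736441 (1139 bp), with a replicate −log10 p of 16.7 and 16.3, an IDR of 0.0166 and a percentile of 95.8 (rank 209 of 4960). Its summit lay 197 bp upstream of an Id1 start site and 94.3 kb from the nearest Bcl2l1 start. The weaker spanned 152734613 to 152735077, with 5.65 and 7.66, an IDR of 0.466 and a percentile of 45.3. No JNKi peak overlapped either, although the stronger was among the highest peaks of the DMSO list. AP-1 sites lay 167 bp and 463 bp from the summit of the stronger peak and 239 bp from that of the weaker one.

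Mcl1, a short-lived pro-survival protein (chromosome 3, 95658788 to 95663176, plus strand, ENSMUSG00000038612.16), had 2 cJun peaks in each list, of which 1 was shared. The shared peak lay 33.6 kb upstream, at the start of Ensa, a phosphatase regulator. It spanned 95625021 to 95625235 in DMSO (−log10 p 13.9 and 19.8, IDR 0.0249, percentile 93.4) and 95625021 to 95625219 in JNKi (19.1 and 20.8, IDR 0.00473, percentile 96.4, rank 60 of 1632). It was narrow, 215 bp and 199 bp, against a median of 643 bp and 601 bp in the lists. The first base was the same in the peaks of all 4 replicates, which was the case for 3 of the 1169 DMSO cJun peaks that a JNKi peak overlapped. The peak unique to DMSO spanned 95664270 to 95664686, 1094 bp past the 3′ end of Mcl1, and is shown above with its AP-1 site, which lay 44 bp from the summit. Its −log10 p was 4.87 and 6.16, its IDR 0.729 and its percentile 30.8, so it was among the weaker peaks of the list. The peak unique to JNKi spanned 95692594 to 95693467, 29.4 kb past the gene and nearer to Adamtsl4, with 9.94 and 9.54, an IDR of 0.105 and a percentile of 80.5. It was 1 of the 2 JNKi member peaks that did not overlap H3K4me3.

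Neither effector had a cJun peak with an IDR of at most 0.05. Bax (chromosome 7, 45461697 to 45466898, minus strand, ENSMUSG00000003873.11) had 1 in DMSO, from 45460026 to 45460233, 1464 bp past its 3′ end. The summit lay 268 bp upstream of a start site of Ftl1, which encodes the ferritin light chain, and no AP-1 site lay in the peak. The replicates gave a −log10 p of 7.51 and 8.85, with an IDR of 0.333 and a percentile of 68.9, and JNKi had no peak there.

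Bak1 (chromosome 17, 27019810 to 27029009, minus strand, ENSMUSG00000057789.14) had 1 peak in each list at the same intergenic place upstream of the gene, the first of the sequences shown above. It spanned 27038137 to 27038724 in DMSO and 27038190 to 27038689 in JNKi. Both peaks held 3 AP-1 sites, which 1.94% of DMSO and 2.27% of JNKi cJun peaks did, and all 3 lay within 60 bp of the JNKi summit, the nearest at 12 bp. In DMSO the nearest was 77 bp away. Neither peak overlapped H3K4me3 of its treatment. The replicates did not agree on its strength, with a −log10 p of 15.1 and 7.64 in DMSO (IDR 0.269, percentile 70.2) and 4.39 and 10.1 in JNKi (IDR 0.476, percentile 20.6). By single replicates its percentile was 87.9 and 55.1 in DMSO and 11.2 and 69.5 in JNKi, so the ranges of the treatments overlapped.

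**Figure D3:**
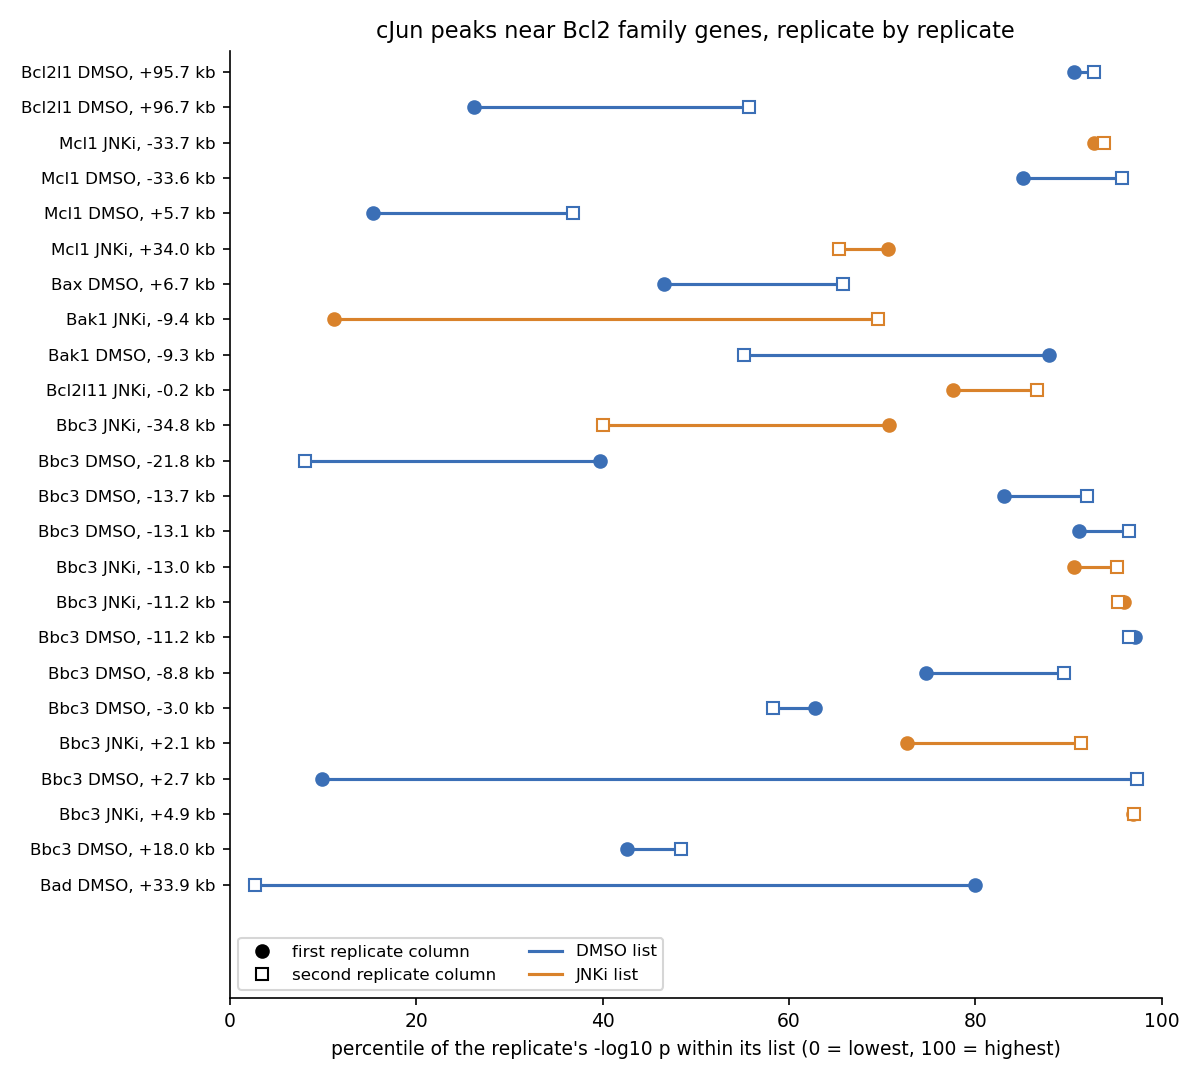
Percentile of each replicate's −log10 p within its list for the 24 cJun peaks near members (filled circle, first replicate column; open square, second), labelled by gene, list and the distance of the summit from the 5′ end of the gene model along its strand. The upstream Bbc3 cluster sits high in both replicates of both lists, whereas the DMSO peak over the Bbc3 gene and the peaks near Bak1 and Bad spread widely between replicates.

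Among the BH3-only genes, Bcl2l11, which encodes Bim (chromosome 2, 128126038 to 128162547, plus strand, ENSMUSG00000027381.16), had no DMSO peak and 1 JNKi peak, which lay at its own start site. It spanned 128125717 to 128126216 (500 bp), with a −log10 p of 11.5 and 15.1, an IDR of 0.0331 and a percentile of 87.1 (rank 212 of 1632). Within 1 kb of a start site, 2.51% of genes had a JNKi cJun peak and 6.94% a DMSO peak. Among the 10 genes only Bcl2l11 (JNKi) and Bbc3 (both lists) did. The peak was GC-rich (70.6%), overlapped H3K4me3 and held no AP-1 site.

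Bbc3, which encodes Puma (chromosome 7, 16308393 to 16318205, plus strand, ENSMUSG00000002083.13), had 8 DMSO and 5 JNKi cJun peaks. At least 8 DMSO peaks were found near 35 of the 21768 genes (0.161%), at least 5 JNKi peaks near 16 (0.0735%), and both near 12 (0.0551%), and such genes may share peaks with their neighbours. Distances below run from its annotated start site at 16309616, inside a gene model that begins at 16308393.

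An upstream cluster ranked high in both lists. In DMSO it held 3 peaks. The first spanned 16294605 to 16294868 (−log10 p 13.2 and 15.8, IDR 0.0398, percentile 92.8), and the next 16295056 to 16295569 (17.1 and 21.1, IDR 0.00995, percentile 96.2). The last spanned 16296475 to 16297743 (25.6 and 21.1, IDR 0.00293, percentile 97.8) and was the highest DMSO cJun peak near any member, at rank 108. In JNKi the cluster held 2 peaks, from 16295056 to 16296001 (17.05 and 22.79, IDR 0.00576, percentile 94.8) and from 16296246 to 16297511 (24.6 and 23.0, IDR 0.00203, percentile 97.4). Each DMSO peak except the first was overlapped by a JNKi peak. Neither list had an AP-1 site in these peaks. The cluster lay 12.4 to 14.9 kb upstream of the Bbc3 start in DMSO. It was intergenic, and the nearest coding start was that of Ccdc9 for every peak of the cluster in both lists. That start was 7945 to 10407 bp from the DMSO summits and 8642 and 10391 bp from the JNKi summits.

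Over the start site and the introns of Bbc3, DMSO had 1 broad peak and JNKi had 2 narrower ones inside or beside it. The DMSO peak spanned 16308787 to 16314392 (5606 bp, the widest cJun peak near any member). Its replicates differed sharply in strength, with a −log10 p of 4.35 and 23.0, although both called it over nearly the same interval (16308787 to 16314392 and 16309039 to 16314366). The lower value set its percentile to 21.8, with an IDR of 0.554. The second replicate alone would place it at 97.4 and the first at 9.92. In JNKi the 2 peaks spanned 16309301 to 16311787 (10.4 and 18.4, IDR 0.0432, percentile 83.7) and 16312258 to 16314558 (26.7 and 26.5, IDR 0.000997, percentile 98.3). The last was the highest JNKi cJun peak near any member, at rank 29 of 1632. By the first replicate alone the JNKi peaks stood at 72.6 and 96.9, and by the second at 91.4 and 97.0. The DMSO peak held 2 AP-1 sites, 1795 bp and 3030 bp from its summit, and the latter was also the single site of the higher JNKi peak, 811 bp from that summit. The peaks differ in width and the lists in length, and no change in rank between treatments was read from these values.

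**Figure D4:**
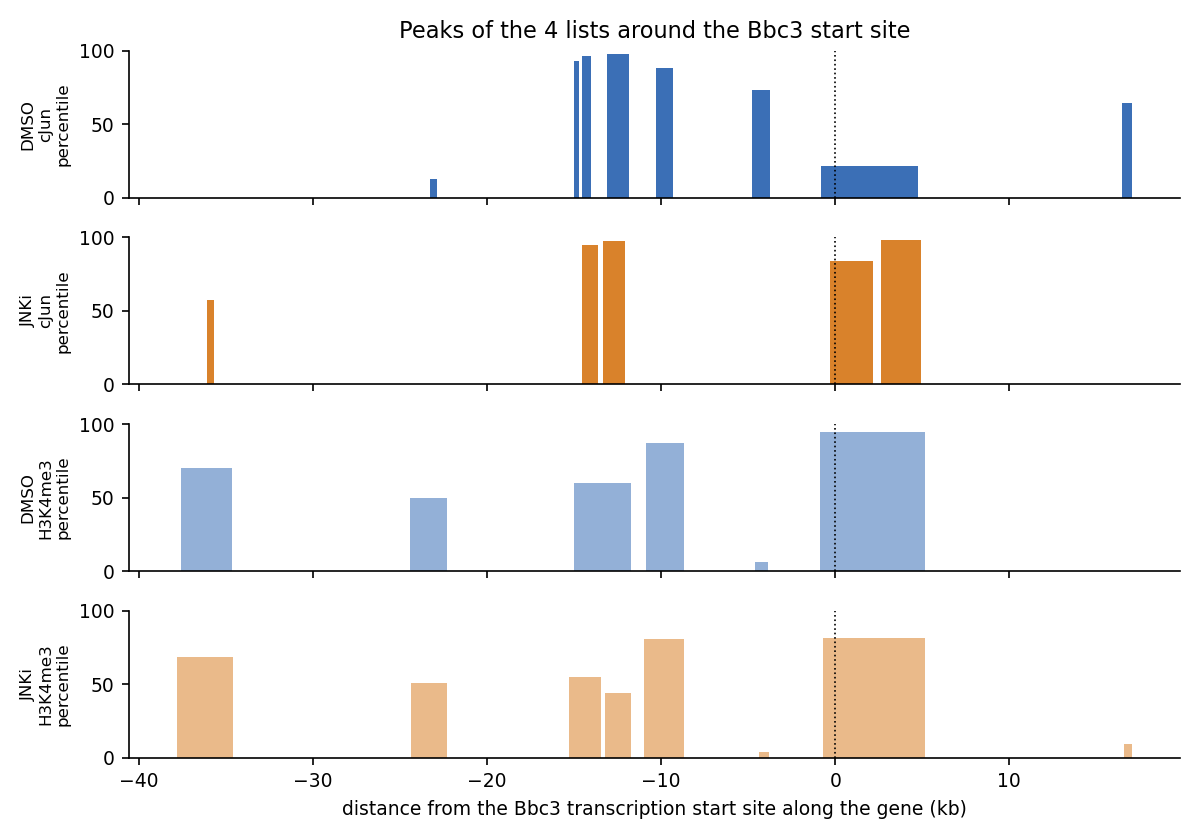
Peaks of the 4 lists by distance from the Bbc3 start site in kb (dotted line), drawn to width, with height giving the percentile within the list. The upstream cJun cluster and the peaks over the gene are present in both treatments, whereas the DMSO peaks at 88.1 and 73.2 percentiles between them and the one in the Sae1 intron have no JNKi cJun counterpart.

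The other Bbc3 peaks were each found in 1 treatment. In DMSO, a peak from 16299324 to 16300293 lay 10047 bp upstream (−log10 p 11.1 and 14.5, IDR 0.0868, percentile 88.1), and one from 16304827 to 16305881 lay 4.22 kb upstream (9.21 and 7.96, IDR 0.262, percentile 73.2). A DMSO peak at the start of Ccdc9 from 16286347 to 16286747 was weak (6.87 and 3.86, IDR 0.729, percentile 12.8). The DMSO peak from 16326090 to 16326669, in an intron of Sae1, a SUMO-activating enzyme gene, is shown above with its AP-1 site 38 bp from the summit (7.03 and 7.05, IDR 0.382, percentile 64.6). JNKi had a further peak at the start of Inafm1, from 16273503 to 16273891 (9.99 and 6.80, IDR 0.285, percentile 57.4). None of these 5 peaks passed an IDR of 0.05. In all, cJun peaks covered 10659 bp around Bbc3 in DMSO and 7389 bp in JNKi.

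Bad (chromosome 19, 6941861 to 6951899, plus strand, ENSMUSG00000024959.14) had 1 DMSO peak, from 6975436 to 6975860, inside introns of the overlapping genes Plcb3 and Ppp1r14b and 23.5 kb past Bad. The summit lay 524 bp past a start site of Ppp1r14b. The replicates of this peak gave a −log10 p of 12.4 and 3.30, with an IDR of 0.729 and a percentile of 3.75, the lowest of the cJun peaks near members. Bid (chromosome 6, 120891930 to 120916853, minus strand, ENSMUSG00000004446.12), which links death receptors to mitochondria, had no cJun peak in either list.

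Pmaip1, which encodes Noxa (chromosome 18, 66458533 to 66465565, plus strand, ENSMUSG00000024521.8), had no peak of either kind in any of the 4 lists within 50 kb. No H3K4me3 peak in either treatment was also the state of 21.4% of protein-coding genes. The nearest H3K4me3 peak lay 113 kb away in DMSO and 276 kb in JNKi, and the nearest cJun peak 925 kb away in both.

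cJun peaks near members mostly lay on H3K4me3 of the same treatment, with 13 of 15 in DMSO and 7 of 9 in JNKi, against 53.4% and 55.5% of the lists. The exceptions were both Bak1 peaks, the Sae1-intron peak and the JNKi peak beyond Mcl1. Bbc3 held 7 of the 13 and 5 of the 7. The shares of the lists count cJun peaks at any distance from a gene, and a share over peaks near genes was not computed. With summits at most 200 bp apart, the member counts were 4 in DMSO and 2 in JNKi.

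H3K4me3 itself was present near 9 of the 10 genes in both treatments, in a window where 78.3% of genes had a DMSO and 77.9% a JNKi peak. The same 9 had a peak within 1 kb of a start site, as did 59.3% and 58.7% of all genes. There were 43 peaks in DMSO and 45 in JNKi. All 43 DMSO peaks and 44 of the 45 JNKi peaks overlapped a peak of the other treatment, against 93.4% and 94.3% of the lists. An IDR of at most 0.05 was met by 38 and 40 of them, against 73% and 75.6%. The peak without a counterpart lay in the Sae1 intron near Bbc3, from 16326199 to 16326662 in JNKi (−log10 p 10.4 and 6.68, IDR 0.28, percentile 9.5). It lay within the interval of the DMSO-only cJun peak described above.

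Start-site H3K4me3 ranked from the middle to the top of the lists. Mcl1 had the highest, at a percentile of 99.3 in DMSO and 99.8 in JNKi, and one of the widest, at 5214 bp and 5248 bp. Its IDR was 0.0593 and 0.282, and this was common at the top of the H3K4me3 lists, where 86 of the 100 highest DMSO and 95 of the 100 highest JNKi peaks had an IDR above 0.05. In the order of the DMSO list, Bbc3 came next with 94.7 (81.6 in JNKi), then Bad with 93.6 (96.5), Bak1 with 93.0 (90.2) and Bax with 89.8 (88.1). The DMSO replicate ranges of Bbc3, Bad and Bak1 overlapped. Bcl2l1 followed with 78.6 (89.3), Bcl2l11 with 77.8 (67.7), Bcl2 with 54.0 (55.9) and Bid with 45.9 (49.7). Over the 9 genes the median percentile was 89.8 in DMSO and 88.1 in JNKi, beside 70.8 and 70.5 over 12709 genes with a start-site peak in both lists.

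Bbc3 showed the greatest difference in start-site H3K4me3 rank between treatments among the 9 genes. Its replicates stood at percentiles of 89.0 and 94.2 in DMSO and 76.8 and 80.8 in JNKi, so they did not overlap, and the peak's percentile was 13.1 points lower in JNKi, from 94.7 to 81.6. A fall of at least 10 points occurred at 7.97% of the 12709 genes and a rise of that size at 6.92%. Bcl2l11 was also lower by over 10 points, but its replicates overlapped (73.5 and 76.6 in DMSO, 78.6 and 67.2 in JNKi). Bcl2l1 was 10.7 points higher in JNKi, with overlapping replicates (84.3 and 77.4 in DMSO, 83.0 and 88.6 in JNKi). The replicates of the treatments did not overlap for Bbc3, Bax, Bak1 and Bad, 4 of 9 genes, as for 36.8% of all. Of these, Bad was the one that ranked higher in JNKi (90.1 and 93.0 in DMSO, 93.2 and 96.1 in JNKi).

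**Figure D5:**
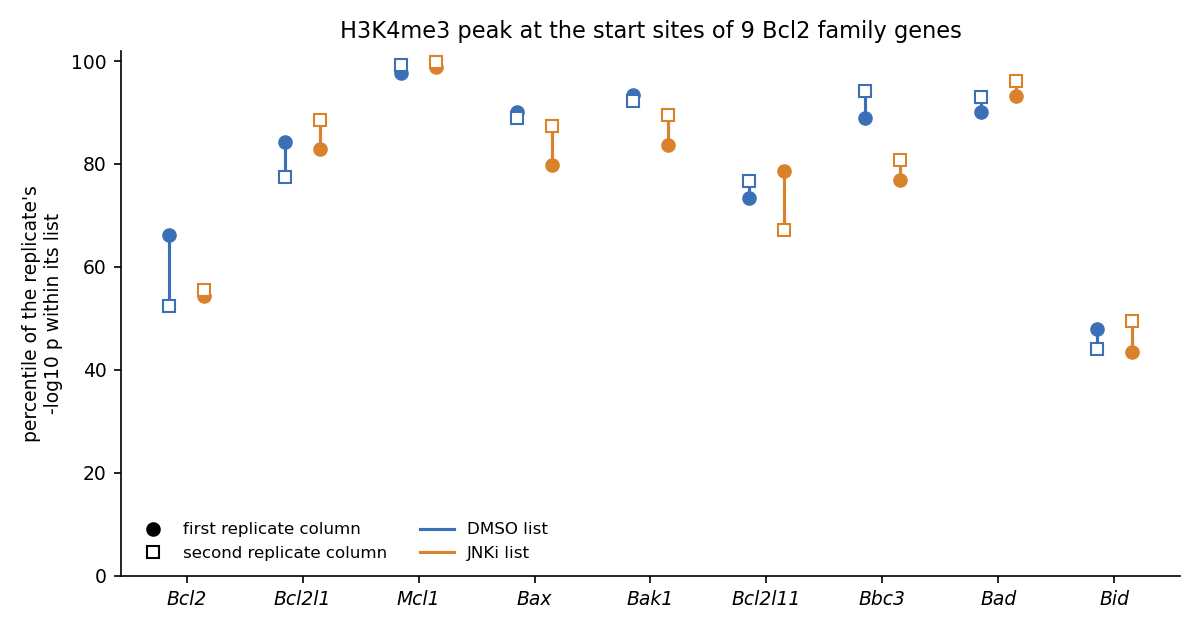
Percentile of each replicate's −log10 p within its list for the H3K4me3 peak at the start sites of 9 genes (blue, DMSO; orange, JNKi; filled circle, first replicate column; open square, second). Bbc3 has both JNKi replicates (76.8 and 80.8) below both DMSO replicates (89.0 and 94.2).

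For the 9 genes the median was 3505 bp (DMSO) and 3461 bp (JNKi), beside 2613 bp and 2664 bp for all genes, and 4 of 9 were wider in JNKi (54.9% of all). The widest was that of Bbc3, at 6054 bp and 5871 bp, which with Mcl1 made 2 of 9 genes of at least 5 kb in DMSO (5.13% of all). The JNKi-minus-DMSO differences ran from a loss of 183 bp at Bbc3 to a gain of 220 bp at Bcl2, while replicates of 1 treatment differed by a median of 66 bp (DMSO) and 115 bp (JNKi). Relative to its width, Bid differed most, at 1183 bp in DMSO (replicates 1174 and 1176) and 1008 bp in JNKi (1008 and 993), a ratio of 0.852. Replicate widths did not overlap between treatments for 4 of the 9 genes (Bcl2, Bcl2l1, Bbc3 and Bid), as for 35.9% of all. At Bcl2l1 both replicates were wider in JNKi (3756 and 3651 bp) than in DMSO (3560 and 3455 bp). The merged Bcl2l1 peak was instead slightly narrower in JNKi (3796 bp) than in DMSO (3804 bp). Upstream of Bbc3, 1 DMSO peak from 16294598 to 16297873 corresponded to 2 JNKi peaks, from 16294305 to 16296168 and from 16296393 to 16297874, over the cJun cluster. This split and the Sae1 peak account for the 8 JNKi peaks against 6 in DMSO at Bbc3. One neighbour of Bcl2l1 shows how a single replicate can set a rank, since the H3K4me3 peak of Tpx2 had a −log10 p of 4.50 and 353 in DMSO, and so a percentile of 3.27, and 423 and 414 in JNKi, at 90.7.

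The members fell into 5 patterns when cJun was taken within 50 kb and H3K4me3 within 1 kb of a start site, in each treatment. Mcl1, Bak1 and Bbc3 had peaks in all 4 lists, as did 1763 protein-coding genes, among them Bmf, Casp9, Diablo, Ddit3 and Foxo3. Bcl2l1, Bax and Bad lacked the JNKi cJun peak but had the other 3, as did 3120 genes, among them Bcl2l2, Fadd, Trp53, Mdm2 and E2f1. Bcl2l11 lacked the DMSO cJun peak but had the other 3, as did 335 genes, among them Bnip3. Bcl2 and Bid had start-site H3K4me3 in both lists and no cJun, as did 7491 genes. Pmaip1 had none of the 4 by these windows, as had 7475 genes, among them Bcl2a1a, Bcl2a1b, Bcl2a1d and Fas.

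The wider apoptosis pathway was examined through 42 genes in 4 lists. A DMSO cJun peak lay within 50 kb of 13 of them and a JNKi peak near 6, beside 28.4% and 12.2% of all genes. Of 15 further Bcl2 family genes, 5 had a DMSO peak (Bcl2l2, Bcl2l10, Bmf, Hrk and Bcl2l15) and 2 a JNKi peak (Bmf and Bnip3). Bmf, another BH3-only gene, had 3 DMSO and 2 JNKi peaks, with a lowest IDR of 0.00223 and 0.0214. Of 12 apoptosome and caspase genes, Casp9 and Diablo had a peak in each list. Of 9 death receptor genes, Fadd alone had a DMSO peak and none had a JNKi peak. Of 6 upstream regulators, 5 had a DMSO peak (Trp53, Mdm2, Ddit3, Foxo3 and E2f1) and 2 a JNKi peak (Ddit3 and Foxo3). Foxo3, a transcription factor that activates BH3-only genes, had 3 and 2 peaks, with a lowest IDR of 0.00878 and 0.00336. Within 1 kb of a start site, Casp9, Ddit3 and Foxo3 had a cJun peak in both lists and E2f1 in DMSO, so 4 of the 42 genes in DMSO and 3 in JNKi, beside 6.94% and 2.51% of all genes. Start-site H3K4me3 was present at 36 of the 42 genes in DMSO and 34 in JNKi, beside 59.3% and 58.7% of all genes.

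At the 50 kb limit the cJun peaks were as follows. The DMSO peak farthest inside it was the weaker Id1 peak, 45.6 kb from Bcl2l1 (percentile 45.3), and the JNKi peak farthest inside was the Inafm1 peak, 34.5 kb from Bbc3 (percentile 57.4). The next peaks outside it were DMSO peaks 86.5 kb from Bak1 (percentile 75.8) and 98.6 kb from Bbc3 (percentile 96.9), and JNKi peaks 81.4 kb (percentile 94.6) and 99.1 kb (percentile 90.2) from Bbc3. For H3K4me3, 29 further peaks in each treatment lay between 50 and 100 kb.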

How the data were processed

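The 12 samples were grouped by their labels (DMSO or JNKi with IgG, cJun or H3K4me3, 2 replicates each). Per the labels, each reaction used 550000 cells and paired reads of 150 bp, at a nominal 30000000 reads per sample. The authors trimmed reads with Trimmomatic, aligned them to GRCm38 with Bowtie2 2.4.2, filtered alignments with SAMtools 1.16, ran MACS2 2.2.7.1 on each replicate and joined replicates with IDR. Coverage and IgG libraries were not used here, so the depth achieved is unknown.

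The deposited −log10 p of a peak was the lower of its replicates' values in every peak, and the deposited score is a scaled IDR. Replicate columns carry no number and are called first and second. Every list reached down to a −log10 p of about 3 (p of 0.001), where the study's methods state default settings, which use a q-value, so the cut-off used is not known.

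Peaks within 50 kb of GENCODE vM21 gene bodies were taken. Overlap meant 1 bp, a start-site peak lay within 1 kb, and sites were searched within 100 bp of summits on the reference. All 10 genes, every cJun peak near them, the highest start-site H3K4me3 peak per gene and list, H3K4me3 peaks without a counterpart, and pathway genes with a cJun peak are named. Another pathway gene was left out of the lists and their counts and is not reported here. Chosen after their values were seen were the Tpx2, Id1 and Ensa details, the restriction to 1632 peaks and the counts without Bbc3. The members and lists were chosen with earlier results of these data known. Overlap, window, motif and percentile steps were tested on simulated data. Python 3.11.15, numpy 2.4.6, pandas 2.3.3, pysam 0.24.0, samtools 1.23.1 and matplotlib 3.10.9 were used. The alternatives were IDR limits, windows, overlap and motif definitions and ranking columns.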

Additional observations from a re-analysis of the deposited data

How the results depend on the processing

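Across 22 results, 97 alternative values were computed, of which 53 stayed within 1.5 times the reported count or within the replicate gap and 44 moved. Smaller windows and stricter limits leave fewer peaks by construction, and no other cause was tested. The cJun counts below are in the order DMSO, JNKi.

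At an IDR of at most 0.05, members with a cJun peak were 3 and 3 and cJun peaks 5 and 6, so the higher DMSO count was not kept near members, while the whole lists held 445 and 255 peaks at this limit. Overlapped cJun peaks fell to 3 and 3, and peaks with an AP-1 site near the summit to 0 and 0. The cJun peaks over H3K4me3 were 5 and 6, which was every member peak left at this limit. At 0.01, members with a cJun peak were 1 and 2, cJun peaks 2 and 4, overlapped peaks 2 and 2, peaks over H3K4me3 2 and 4, and AP-1 peaks 0 and 0. A 10 kb window left cJun peaks at 7 and 4, overlapped peaks at 2 and 3, and peaks over H3K4me3 at 5 and 3. It left H3K4me3 peaks at 17 and 18, overlapped at 17 and 17, and a 100 kb window raised them to 72 and 74, overlapped at 70 and 71. Reciprocal overlap of 50%, which a narrow peak inside a wide one fails, gave 2 and 2 cJun peaks over H3K4me3, and summits at most 200 bp apart gave 4 and 2. AP-1 sites in the whole peak gave 6 and 2.

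Ranked by the first replicate column, the median percentile of cJun peaks near members was 74.7 and 77.6, and by the second 65.8 and 91.4, against 70.2 and 87.1, so the gap between the lists depended on the replicate. That of JNKi H3K4me3 peaks was 75.4 by the first column. Ranked by IDR, H3K4me3 peaks stood at 58.6 in DMSO and 60.3 in JNKi. In alternatives chosen after seeing the data, a DMSO cJun list as long as the JNKi list held 9 peaks near members, and without Bbc3 there were 7 and 4. The start-site counts of H3K4me3 stayed at 8 or 9 of the 10 genes in each alternative run.

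No paired analysis was possible because the lists join both replicates of a group without saying which column is which number. Ranking by 1 replicate column leaves the other replicate out of the percentiles. Counts could not be recomputed without a replicate, because the lists hold only peaks called in both. The nominal depth was the same in every sample, 30000000 reads, but the depth achieved is not known, which limits every comparison of list lengths.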
